A study of Mus musculus with 7 samples.

Results

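Semaphorins, plexins, Slits, Robos, netrins, Unc5 receptors, ephrins and Eph receptors form the main ligand and receptor families of axon guidance. Their genes were taken by symbol from the platform annotation of the arrays, using probe sets that name exactly 1 gene and, for a gene with several, the probe set of highest mean over all 7 arrays. Sema3c, Sema3g, Unc5b, Efnb2 and Ephb4 were set aside, which left 61 of the 22180 genes measured. Of these, 60 were bright enough to be tested, and Epha6, an Eph receptor, lay below the limit for dim genes at a mean log2 signal of 2.35. Among the 61 were Plxna4os1, a transcript named for the opposite strand of Plxna4, and Unc5cl, which resembles the intracellular end of Unc5 receptors; neither is a guidance ligand or receptor. Ephb2 and Ntn5 were not analysed here.

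The RNA was taken from embryonic mouse lung at E18.5 on a C57BL/6 background, and the groups were 3 samples of wild-type embryos and 4 samples of littermates labelled Sash1-knockout (Sash1-/-). Viable cells that carried the endothelial antigen CD31 and neither the leukocyte antigen CD45 nor the epithelial antigen CD326 were sorted, and their amplified RNA was hybridised to 1-colour arrays, 1 array per sample. The labels do not say whether a sample was 1 embryo or several, nor which part of Sash1 was removed, so the p-values cover only sample-to-sample spread, part of which may be technical. Samples are called by their labels, as wild-type 1 to 3 and knockout 1 to 4.

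In axon guidance a ligand, either secreted or held on a neighbouring cell, binds a receptor on the growing tip and turns, stops or attracts it by acting on small GTPases and the actin cytoskeleton. Sprouting endothelial tip cells use the same families. Class 3 semaphorins act through plexins, mostly with a neuropilin co-receptor, Slits act through Robo receptors, netrins act through Dcc and Unc5 receptors, and ephrins and Eph receptors signal in both directions where cells touch. In vessels these families are known for guiding sprouts, keeping arteries and veins apart and tuning the endothelial barrier.

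Sash1, the gene named in the labels, measured 9.02, 8.73 and 8.33 on wild-type 1 to 3 and 8.29, 8.21, 8.68 and 8.13 on knockout 1 to 4, on a log2 scale. Wild-type 3 thus lay among the knockout-labelled values and knockout 3 near wild-type 2. Both arrays went against their labels, and all directions below rest on the labels. The knockout-labelled mean of Sash1 minus its wild-type-labelled mean was -0.37 (confidence interval -0.83 to 0.10), a ratio of 0.78. In limma its Benjamini-Hochberg adjusted p was 0.971, so Sash1 itself did not pass the test between the labels. The results below carry that limit. The 10 endothelial markers averaged 10.11 to 10.19 on the wild-type-labelled arrays and 10.06 to 10.29 on the knockout-labelled arrays. Markers of other cells were also measured: 13 lung epithelial genes averaged 7.17 to 8.16 and 6.78 to 7.96, 10 fibroblast genes 6.51 to 7.08 and 6.79 to 7.31, and 12 leukocyte genes 4.93 to 5.50 and 4.70 to 5.32. Single genes of a list lay far from its average. Among the epithelial genes, Sftpc read 11.86 to 12.00 on all arrays but knockout 4 (10.20), and Foxj1 read 4.84 to 5.17. In such sorted samples fewer cells of a type and less RNA per cell cannot be told apart.

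No guidance gene passed the test between the labels. In limma, 0 of the 60 tested members had a Benjamini-Hochberg adjusted p under 0.05, and 0 of all 16637 tested genes did, a background of 0%. The lowest adjusted p among the members was 0.971. At an unadjusted p under 0.05 there was 1 member, Sema6d, or 1.67% of the members, where 3.34% of all tested genes reached that level. For 0 members did the values of both labels lie fully apart, against 2.45% of all tested genes. Differences, given throughout as the knockout-labelled mean minus the wild-type-labelled mean in log2 units, ran from -0.69 for Epha2 to 0.59 for Epha4. Of the members, 36 differed above 0 and 24 below, with a median of 0.03, beside a median of 0.02 over all tested genes.

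**Figure D1:**
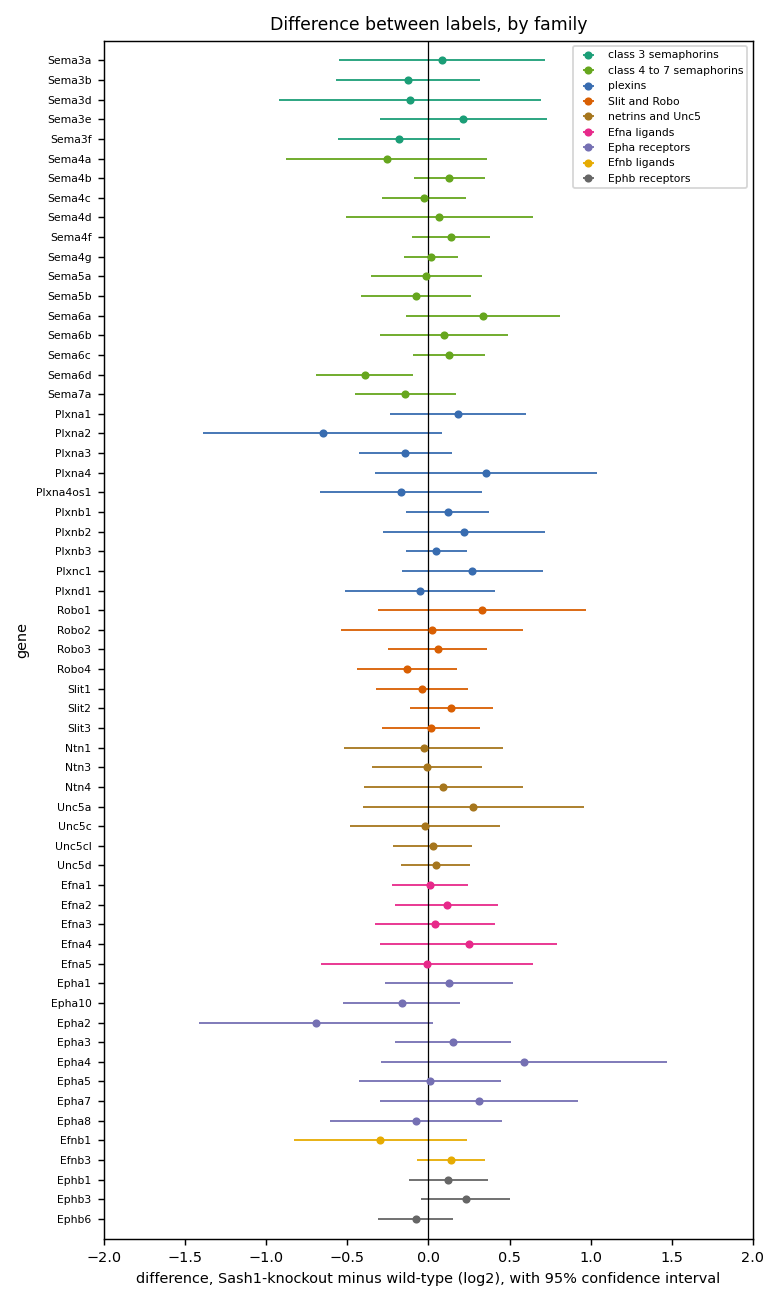
Difference between labels for each of the 60 tested genes (log2, knockout-labelled minus wild-type-labelled mean; points) with its 95% confidence interval (bars), coloured by family. Only the interval of Sema6d, from -0.69 to -0.09, leaves out 0.

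Sema6d, Epha2, Plxna2 and Epha4 are shown with the stretch before their start because the values by array below turn on them: Sema6d, Epha2 and Plxna2 had the smallest unadjusted p of the members, and Epha4 the largest spread within labels. Each line gives the 200 bases next to the gene's extent in RefSeq's gene table and outside it, 5′ to 3′ on the gene's strand, from RefSeq for build GRCm38.p6, which need not be the build behind the arrays. Epha2 is at chr4:141301021-141301220 (plus strand), Plxna2 at chr1:194619591-194619790 (plus), Epha4 at chr1:77515108-77515307 (minus) and Sema6d, upstream of the first of its 2 listed starts, at chr2:124089743-124089942 (plus). The 4 stretches thus lie in no exon or intron of the gene. Capitals mark matches to the GC box GGGCGG, the TATA box TATAAA, the AP-1 site TGANTCA, the CRE TGACGTCA, the E-box CACGTG and the ETS site CCGGAAG, each searched on both strands.
Epha2: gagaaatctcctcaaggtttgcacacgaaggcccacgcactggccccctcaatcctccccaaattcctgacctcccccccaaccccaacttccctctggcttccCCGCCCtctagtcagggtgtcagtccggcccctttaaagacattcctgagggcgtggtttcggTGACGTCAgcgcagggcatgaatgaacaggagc
Plxna2: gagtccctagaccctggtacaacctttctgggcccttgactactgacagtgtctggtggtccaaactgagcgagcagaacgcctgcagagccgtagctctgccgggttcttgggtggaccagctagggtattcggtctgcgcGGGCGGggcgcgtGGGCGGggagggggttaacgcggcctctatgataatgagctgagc
Epha4: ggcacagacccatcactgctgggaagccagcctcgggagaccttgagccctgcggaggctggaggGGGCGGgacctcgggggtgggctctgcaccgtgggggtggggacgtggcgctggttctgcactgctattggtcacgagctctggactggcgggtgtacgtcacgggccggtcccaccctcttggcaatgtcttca
Sema6d: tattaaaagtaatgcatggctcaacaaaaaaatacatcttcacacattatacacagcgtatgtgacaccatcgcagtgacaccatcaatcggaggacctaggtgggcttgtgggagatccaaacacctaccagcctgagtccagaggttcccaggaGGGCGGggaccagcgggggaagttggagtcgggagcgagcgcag

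All 4 stretches hold a GC box, the element bound by SP and KLF factors, and Plxna2 holds 2. Epha2 alone of these 4 holds a CRE, the element bound by CREB and ATF factors. Shares were taken over other windows, of 250 bases before each start in RefSeq's promoter table; for Plxna2, Epha4 and Sema6d that start lies inside the gene's extent, so these windows reach further in than the stretches shown. There 67 promoters of 51 members were found in the RefSeq table, and 47 of the 67 held a GC box, against 50.8% of 16122 promoters of tested genes and 32.7% of all 32851 promoters. TATA boxes stood in 1.49% of the member promoters, in that of Slit2, against 8.06% of the promoters of tested genes and 12.4% of all. CRE matches stood in 1.49%, 2.22% and 1.55%, AP-1 matches in 4.48%, 5.22% and 6.75%, E-boxes in 5.97%, 7.60% and 6.02%, and ETS matches in 2.99%, 10.7% and 6.91%. The member windows had a median GC content of 64.0% and 15 CG pairs, against 58.4% and 13 in the promoters of tested genes. A GC-rich window holds GC boxes more often, and a match is a description of the letters only.

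Class 3 semaphorins are secreted ligands. Sema3f, which repels sprouts through neuropilin 2, measured 9.38, 8.98 and 8.98 on wild-type 1 to 3 and 8.82, 8.93, 9.24 and 8.73 on knockout 1 to 4. Wild-type 1 and knockout 3 were high, the labels overlapped, and the difference was -0.18 (95% confidence interval -0.56 to 0.19). Sema3e, the ligand that binds plexin D1 without a neuropilin, measured 4.44, 4.44 and 3.78 against 4.49, 4.04, 4.72 and 4.49. Its low arrays were wild-type 3 and knockout 2, and its difference of 0.22 (-0.30 to 0.73) became -0.005 without wild-type 3. Sema3a, a repellent that acts through neuropilin 1, differed by 0.08 (-0.55 to 0.72), with knockout 4 highest at 5.02 and knockout 2 lowest at 3.93. Sema3b, a secreted repellent of the same class, differed by -0.13 (-0.57 to 0.32) and ranged from 4.03 to 4.79. Sema3d, which ranged from 2.90 on knockout 2 to 4.30 on knockout 3, had the second widest spread within labels of the members (SD 0.53) and differed by -0.11 (-0.92 to 0.69). The 5 genes had a median difference of -0.11, which was 0.14 without wild-type 2 and 0.10 without knockout 2. The 2 genes of the class that were set aside differed by 0.23 (Sema3c) and -0.12 (Sema3g).

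Class 4 to 7 semaphorins sit on the cell surface, by a transmembrane segment or, for Sema7a, by a lipid anchor. Sema6d, a transmembrane ligand of plexin A1, measured 8.23, 8.26 and 7.91 on wild-type 1 to 3 and 7.74, 7.91, 7.76 and 7.55 on knockout 1 to 4. The labels touched at 7.91, the value of wild-type 3 and of knockout 2, and no knockout-labelled array lay above any wild-type-labelled array. The difference was -0.39 (SE 0.13, 95% confidence interval -0.69 to -0.09), a ratio of 0.76 (0.62 to 0.94); limma gave an adjusted p of 0.971. Leaving out single arrays gave -0.50 to -0.33. Over all 17 alternatives Sema6d lay between -0.51 and -0.33, with limma adjusted p from 0.319 to 1. Among them, changes to the filter on dim genes, the moderation and the probe sets cannot alter its difference.

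Sema6a, a transmembrane ligand of plexins A2 and A4, measured 8.63, 8.76 and 9.45 on wild-type 1 to 3 and 9.29, 9.47, 9.18 and 9.19 on knockout 1 to 4. Wild-type 1 and 2 were low and the other 5 arrays lay within 9.18 to 9.47, so that wild-type 3 fell inside the knockout-labelled range. The difference of 0.34 (-0.14 to 0.81) was 0.59 without wild-type 3, and dropping wild-type 1 gave 0.18. Sema7a, the lipid-anchored ligand of plexin C1, measured 10.05, 9.85 and 9.71 against 9.62, 9.75, 9.97 and 9.57, a difference of -0.14 (-0.45 to 0.17), or -0.05 without wild-type 1. Sema4d, the ligand of plexin B1, ranged from 4.22 on wild-type 1 to 5.16 on knockout 4 and differed by 0.07 (-0.51 to 0.64). Sema4b and Sema4f, 2 transmembrane members, differed by 0.13 (-0.09 to 0.35) and 0.14 (-0.10 to 0.38). The remaining 7 genes of these classes differed by -0.26 (Sema4a) to 0.12 (Sema6c), and the median of all 13 was 0.02.

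**Figure D2:**
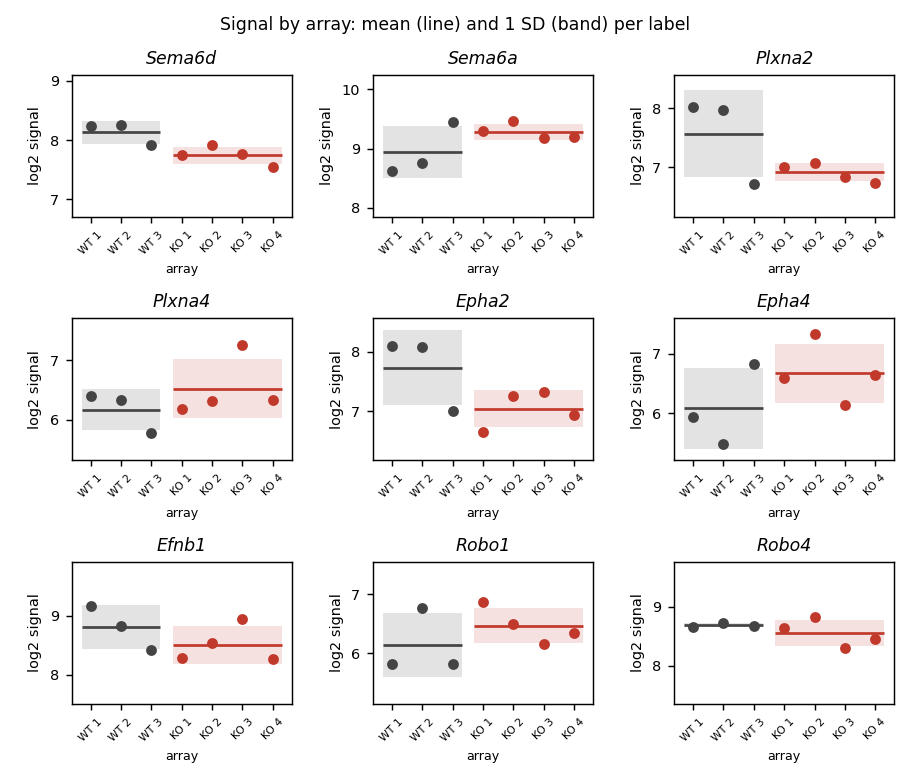
Log2 signal of 9 guidance genes on each array (points; grey, wild-type-labelled; red, knockout-labelled), with the mean (line) and 1 SD (band) of each label; every panel spans the same height. In Plxna2, Epha2 and Sema6a wild-type 3 lies with the knockout-labelled arrays, away from wild-type 1 and 2.

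Plexins are the receptors of semaphorins and carry a GTPase-activating domain for Ras-like proteins inside the cell. Plxna2, a receptor of Sema6a and, with neuropilins, of class 3 semaphorins, measured 8.01, 7.97 and 6.72 on wild-type 1 to 3 and 7.01, 7.07, 6.84 and 6.74 on knockout 1 to 4. Wild-type 1 and 2 stood above the other 5 arrays, none of which passed 7.07, and wild-type 3 was the lowest of all. The difference was -0.65 (-1.39 to 0.08), a ratio of 0.64 (0.38 to 1.06). Without wild-type 3 it was -1.08 (-1.37 to -0.78; limma adjusted p 0.469), and dropping wild-type 1 or wild-type 2 gave -0.43 and -0.45. Over the 17 alternatives the adjusted p ran from 0.244 to 1.

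Plxna4, a partner of neuropilins that also binds Sema6a, measured 6.40, 6.34 and 5.77 on wild-type 1 to 3 and 6.18, 6.32, 7.26 and 6.34 on knockout 1 to 4. Knockout 3 stood above all other arrays, and the difference of 0.36 (-0.33 to 1.04) was 0.11 without it, while dropping wild-type 3 gave 0.16. Plxnc1, the receptor of Sema7a, was lowest on wild-type 1 at 5.47 and lay within 5.99 to 6.29 on the others; its difference of 0.27 (-0.16 to 0.71) was 0.05 without wild-type 1. Plxnd1, the endothelial receptor of Sema3e, measured 8.86, 9.20 and 9.26 against 9.06, 9.22, 8.59 and 9.34. Its difference of -0.05 (-0.52 to 0.41) was 0.10 without knockout 3, and it was 0.003 with each array centred on its median. Plxna1, the receptor of Sema6d, differed by 0.18 (-0.24 to 0.60) on the probe set used and by -0.08 on its dimmer one. Plxnb1, the receptor of Sema4d, differed by 0.12 (-0.14 to 0.37) on the probe set used and by -0.15 on the dimmer one, where knockout 2 was lowest at 3.45. Plxnb2, a receptor of class 4 semaphorins, differed by 0.22 (-0.28 to 0.72), with knockout 2 highest at 7.48 and knockout 4 lowest at 6.67. Plxna3 read 3.78 on 6 arrays and 4.21 on wild-type 1. Over the 10 symbols of this family, 6 differences lay above 0 and 4 below.

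Slits are large secreted ligands, and Robo receptors bind them. Slit2, which guides sprouts through Robo1 and Robo2, measured 7.20, 7.40 and 7.40 on wild-type 1 to 3 and 7.50, 7.66, 7.34 and 7.40 on knockout 1 to 4, a difference of 0.14 (-0.11 to 0.40). Slit3, a family member also made by smooth muscle, differed by 0.01 (-0.29 to 0.32), a sign that turned without wild-type 1, wild-type 3, knockout 1 or knockout 4 (lowest at -0.08). Robo4, the endothelial Robo that stabilises the vessel barrier, measured 8.66, 8.72 and 8.68 against 8.64, 8.82, 8.30 and 8.46. The wild-type-labelled values lay within 0.06 of each other and inside the knockout-labelled range, and the difference was -0.13 (-0.44 to 0.18), or -0.05 without knockout 3.

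Robo1 varied most in this family. It measured 5.83, 6.76 and 5.83 on wild-type 1 to 3 and 6.87, 6.50, 6.16 and 6.35 on knockout 1 to 4. Wild-type 2 and knockout 1 were high, and wild-type 1 and 3 had the same low value. The difference of 0.33 (-0.31 to 0.97) was 0.64 without wild-type 2; dropping knockout 1 gave 0.20, and dropping wild-type 1 or wild-type 3 gave 0.18. The 10 fibroblast markers, all above the dim limit, averaged 6.51, 7.08 and 6.83 against 7.31, 6.79, 7.06 and 6.90, with wild-type 2 and knockout 1 the highest of their labels too. The lowest knockout-labelled array was knockout 2 for the markers but knockout 3 for Robo1. The part of these markers in the Robo1 values was not tested. Robo2 was lowest on knockout 3 at 3.97 and differed by 0.02 (-0.54 to 0.59), and Robo3, a divergent Robo, was lowest on wild-type 3 at 2.71 and differed by 0.06 (-0.25 to 0.36). Of the 7 genes of the family 5 differed above 0 and 2 below, with a median of 0.02.

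Netrins are secreted relatives of laminins, and Unc5 receptors turn their signal into repulsion. Ntn1 measured 5.52, 5.16 and 4.65 on wild-type 1 to 3 and 5.16, 4.81, 5.19 and 5.16 on knockout 1 to 4. Wild-type 1 was high and wild-type 3 low, and the difference of -0.03 (-0.52 to 0.46) was 0.18 without wild-type 1; dropping wild-type 3 gave -0.26. It was 0.02 with quantile normalization and 0.03 with each array centred on its median. Ntn4, the netrin of vascular basement membranes, ranged from 4.30 on knockout 4 to 5.20 on knockout 1 and differed by 0.09 (-0.40 to 0.58). Unc5a measured 5.45, 5.61 and 6.13 against 5.93, 6.38, 5.34 and 6.38, where knockout 3 was the lowest of all arrays, and differed by 0.28 (-0.41 to 0.96), or 0.50 without knockout 3. Unc5c was lowest on knockout 3 (4.21) and highest on knockout 4 (5.11), and its difference of -0.02 (-0.48 to 0.44) was 0.03 with quantile normalization and 0.04 with each array centred on its median. Unc5d, a family member with roles in cortical neurons, differed by 0.04 (-0.17 to 0.26), and Unc5cl by 0.03 (-0.22 to 0.27). The 7 genes had a median of 0.03, with 4 above 0 and 3 below. Unc5b, the endothelial netrin receptor set aside, differed by -0.09 (-0.40 to 0.23).

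Ephrin-A ligands are held on the membrane by a lipid anchor. Efna1, the ephrin of vessels and the main partner of Epha2, measured 8.79, 8.86 and 8.75 on wild-type 1 to 3 and 8.95, 8.89, 8.77 and 8.64 on knockout 1 to 4. The labels overlapped in full and the difference was 0.01 (-0.22 to 0.25). Its interval left out a change in array signal of 1.2-fold or more in either direction. Efna5 measured 5.35, 5.41 and 4.63 against 5.16, 4.95, 5.67 and 4.70, low on wild-type 3 and knockout 4 and high on knockout 3. Its difference of -0.01 (-0.66 to 0.64) was 0.03 with quantile normalization, 0.05 with each array centred on its median, -0.26 without wild-type 3 and 0.13 without wild-type 2 or knockout 4. Efna4 was highest on wild-type 2 (5.13) and knockout 1 (5.36) of their labels, as Robo1 and the fibroblast markers were, and differed by 0.25 (-0.30 to 0.79). Its lowest knockout-labelled array was knockout 3 (4.58), as for Robo1, where the fibroblast markers were lowest on knockout 2. Efna2 and Efna3 differed by 0.11 (-0.21 to 0.43) and 0.04 (-0.33 to 0.41). All but Efna5, which joined them under both scalings, of the 5 ligands differed above 0, with a median of 0.04 and each interval spanning 0.

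Epha receptors are receptor tyrosine kinases that bind ephrin-A ligands. Epha2, the endothelial receptor of Efna1, measured 8.10, 8.09 and 7.00 on wild-type 1 to 3 and 6.64, 7.25, 7.32 and 6.94 on knockout 1 to 4. As for Plxna2, wild-type 1 and 2 stood above all other arrays and wild-type 3 lay within the knockout-labelled range. The difference was -0.69 (SE 0.31, -1.41 to 0.03), a ratio of 0.62 (0.38 to 1.02). Without wild-type 3 it was -1.06 (-1.56 to -0.55), and over the 17 alternatives it ran from -1.15 to -0.51 with adjusted p from 0.256 to 1 in limma. The 15 dissociation stress genes, immediate early factors and heat shock genes that cell isolation is known to induce, averaged 9.15, 8.93 and 7.66 on wild-type 1 to 3 and 8.78, 7.59, 9.43 and 7.02 on knockout 1 to 4, with 13 of 15 differences below 0 and 0 called. Wild-type 1 and 2 were high there too. Knockout 3, the highest array of the stress list, read 7.32 for Epha2, the highest of the knockout-labelled arrays, and 6.84 for Plxna2, within their range. Knockout 1, at 8.78 on the stress list, read 6.64 for Epha2, the lowest of all arrays. Wild-type 1 and 2 above wild-type 3 was not particular to stress genes. The lung epithelial list also had it (8.16, 7.87 and 7.17 on wild-type 1 to 3). So did the lymphatic, venous, aerocyte, mural, leukocyte, mesothelial, nerve and glia, and platelet and erythroid lists. The endothelial, arterial (7.62, 7.40 and 7.80) and fibroblast lists did not. The part of these stress genes in these differences was not tested.

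Epha4, which binds ephrins of both classes, ran the other way. It measured 5.94, 5.48 and 6.83 on wild-type 1 to 3 and 6.59, 7.33, 6.13 and 6.64 on knockout 1 to 4, a range of 1.85 that was the widest of the members. Wild-type 1, wild-type 2 and knockout 3 were the 3 low arrays. They were also the 3 highest of the dissociation stress list (9.15, 8.93 and 9.43). The lowest array of that list, knockout 4 (7.02), read 6.64 for Epha4, below wild-type 3 and knockout 2. The part of the stress genes in the Epha4 values was not tested. The difference of 0.59 (-0.29 to 1.47), a ratio of 1.5 (0.82 to 2.77), was 0.96 without wild-type 3; dropping wild-type 2 gave 0.29 and dropping knockout 2 gave 0.37. Epha7, a receptor of ephrin-A ligands, was low on wild-type 1 alone, at 3.38 against 4.22 to 4.61 on the others, and its difference of 0.31 (-0.30 to 0.92) was -0.02 without wild-type 1. Epha10, an Eph receptor without kinase activity, differed by -0.16 (-0.53 to 0.20), and by -0.03 without knockout 2. The other 4 tested genes, Epha1, Epha3, Epha5 and Epha8, differed by -0.08 to 0.15, and all intervals spanned 0. The 8 tested receptors had a median of 0.07, which was -0.07 without wild-type 3.

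Ephrin-B ligands span the membrane and signal into their own cell when bound. Efnb1 measured 9.16, 8.82 and 8.42 on wild-type 1 to 3 and 8.28, 8.53, 8.94 and 8.26 on knockout 1 to 4. Knockout 4 was lowest and wild-type 1 highest, as for Sash1, and wild-type 3 and knockout 3 again lay among the arrays of the other label. The difference of -0.30 (-0.83 to 0.24) was -0.12 without wild-type 1, and dropping wild-type 3 gave -0.49. Without wild-type 3 and knockout 3 it was -0.63 (-1.04 to -0.23, limma adjusted p 0.312). As Efnb1 shared the placing of these 2 arrays with Sash1, leaving both out had to widen the difference. In that fit the labels lay apart for 24% of all tested genes. Efnb3, an ephrin-B known from the nervous system, differed by 0.14 (-0.07 to 0.35). Efnb2, the arterial ephrin set aside, differed by -0.02 (-0.38 to 0.35).

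Ephb receptors bind ephrin-B ligands. Ephb3, a receptor found on veins, measured 5.01, 4.90 and 4.71 on wild-type 1 to 3 and 5.26, 4.95, 5.01 and 5.19 on knockout 1 to 4, a difference of 0.23 (-0.05 to 0.51). Wild-type 1 alone reached into the knockout-labelled range, and leaving out single arrays gave 0.15 to 0.30. Ephb1 differed by 0.12 (-0.12 to 0.36) on the probe set used and by 0.05 on the dimmer one, and Ephb6, which lacks kinase activity, by -0.08 (-0.31 to 0.15). Ephb4, the venous receptor of Efnb2 set aside, differed by -0.11 (-0.52 to 0.31).

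Of the ligand and receptor pairs among the members that are named above by their known binding, neither side passed the test. The differences were 0.34 for Sema6a with -0.65 for Plxna2 and 0.36 for Plxna4, -0.39 for Sema6d with 0.18 for Plxna1, -0.14 for Sema7a with 0.27 for Plxnc1, and 0.22 for Sema3e with -0.05 for Plxnd1. They were 0.07 for Sema4d with 0.12 for Plxnb1, 0.14 for Slit2 with 0.33 for Robo1 and 0.02 for Robo2, and 0.01 for Efna1 with -0.69 for Epha2. The signs of several of these turn under other settings, as given with each gene or under the alternatives.

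Guidance genes were read again with arrays left out, because wild-type 3 and knockout 3 went against their labels. On the dissociation stress list, wild-type 3 (7.66) also lay within the knockout-labelled range, and knockout 3 (9.43) was the highest array. Without both, wild-type 1 and 2 (9.15 and 8.93) lay above knockout 1, 2 and 4 (8.78, 7.59 and 7.02) on that list. The part of the stress genes in the fits below was not tested. Without wild-type 3, 6 of the 60 members (10%) had an unadjusted p under 0.05, beside 7.9% of all tested genes. They were Epha2, Plxna2 and Sema6d below 0 and Epha4, Plxnc1 and Sema6a above 0. The labels lay apart for these 6 and for Robo3, 7 members or 11.7%, beside 15.3% of all tested genes. Without both wild-type 3 and knockout 3, 9 members (15%) had an unadjusted p under 0.05, beside 10.7% of all tested genes, and 12 members (20%) lay apart, beside 24% of all tested genes. Those 9 were Epha2 (-1.15), Plxna2 (-1.05), Efnb1 (-0.63), Sema6d (-0.51), Efna5 (-0.44), Sema7a (-0.30), Sema6a (0.62), Unc5a (0.70) and Epha4 (1.14). In both fits 0 members passed an adjusted p of 0.05 in limma, with a lowest adjusted p of 0.469 and 0.244. These shares lay near those of all genes and were read as no result about the guidance genes.

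**Figure D3:**
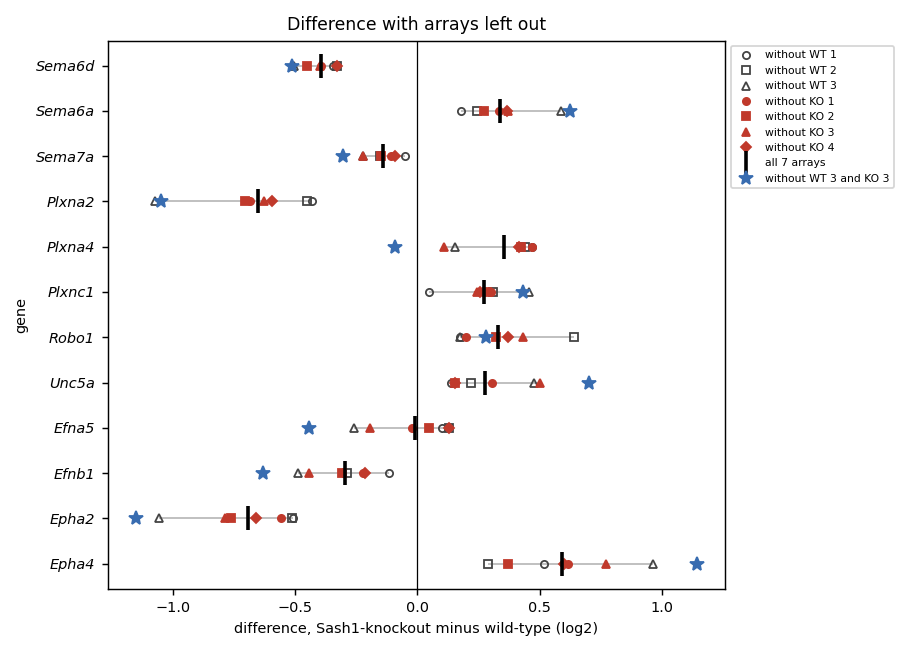
Difference between labels (log2) of 12 guidance genes with all 7 arrays (black bar), with each array left out in turn (open symbols, wild-type-labelled; red symbols, knockout-labelled) and without wild-type 3 and knockout 3 (blue star). Plxna2 and Epha2 move from -0.65 and -0.69 to -1.08 and -1.06 without wild-type 3, while Sema6d stays between -0.50 and -0.33 with any 1 array left out.

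Single arrays moved nearly all of these genes. Leaving out 1 array turned the sign of 30 of the 60 tested members, and moved the difference by over 1.5 times or turned it in 58; only Sema4f and Sema6d kept theirs within that factor. Wild-type 3 was the single lowest array for 16 of the 55 members with 1 lowest array (29.1%), beside 17.0% of all tested genes, and the single highest for 2 of 59 (3.39%), beside 10.6%. The members' median spread within labels was an SD of 0.23, beside 0.20 over all tested genes, and ran from 0.02 for Sema4g to 0.58 for Epha4. The median 95% confidence interval of a member reached 0.39 to either side. For 56 of 60 members (93.3%) it lay within 1 log2 unit of 0, beside 93.3% of all tested genes. With all 7 arrays as labelled, a change in array signal of 2-fold or more was thus left out for these 56. This bounds the signal and not the RNA, and some of the 56 were dim, such as Robo3 (mean 3.06) and Plxnb3 (3.15). The interval of Sash1, the gene named in the labels, also lay within 1 (-0.83 to 0.10). The exceptions among the members were Epha2, Epha4, Plxna2 and Plxna4. For 28 of 60 members (46.7%) the interval lay within 0.5, beside 55.0% of all tested genes. Without wild-type 3 and knockout 3 some of the 56 reached past 1, such as Efnb1 (-1.04 to -0.23), Robo1 (-0.57 to 1.13) and Unc5a (0.23 to 1.17).

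**Figure D4:**
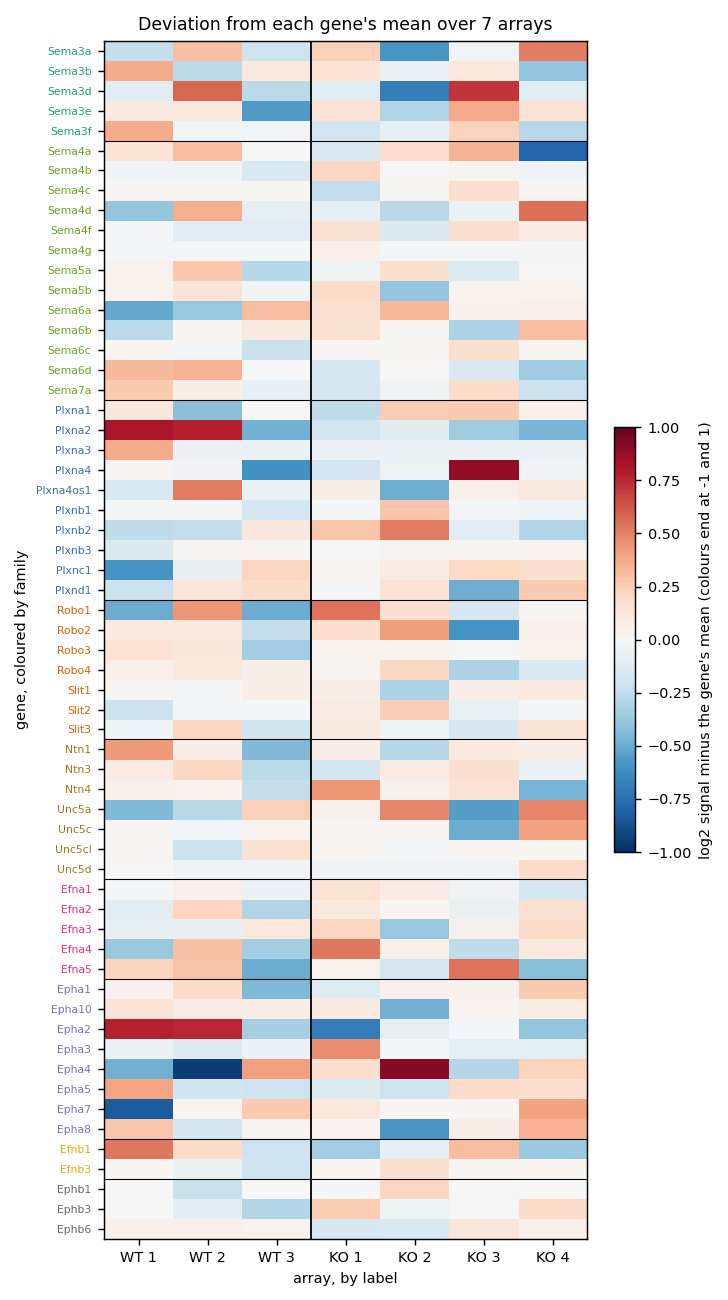
Deviation of each tested guidance gene from its own mean over 7 arrays (colour, log2 units, ends at -1 and 1), by array (columns, wild-type-labelled left of the line) and family (rows, coloured names). Rows such as Plxna2, Epha2 and Epha4 set wild-type 1 and 2 apart from wild-type 3, and neighbouring genes of a family differ in which arrays are high.

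Co-receptors and inner effectors of guidance signalling were also measured. Of 62 genes listed from textbook knowledge, 58 were matched and 57 tested; 30 differed above 0 and 27 below, with a median of 0.006, and 0 passed in limma. At an unadjusted p under 0.05 there were 4 of the 57 (2 above 0 and 2 below), against 556 of all 16637 tested genes (3.34%). These 4, Nrp1, Nck2, Fyn and Rgs3, each had a limma adjusted p of 0.971. Nrp1, the co-receptor of Sema3a and of VEGF, measured 9.17, 9.25 and 9.76 on wild-type 1 to 3 and 9.80, 9.93, 9.72 and 9.77 on knockout 1 to 4, and differed by 0.41 (0.05 to 0.77). As for Sema6a, wild-type 1 and 2 were its low arrays. Nck2, an adaptor of ephrin-B signalling, measured 4.77, 4.79 and 4.47 against 4.26, 4.37, 4.43 and 4.19, with a difference of -0.36 (-0.63 to -0.10). It was the 1 gene of the 57 whose labels lay apart, where 2.45% of all tested genes did. Fyn, a Src-family kinase, differed by -0.28 (-0.53 to -0.03) and Rgs3, a G protein regulator bound by ephrin-B ligands, by 0.51 (0.02 to 1.01). Nrp2, the co-receptor of Sema3f, differed by 0.03 (-0.45 to 0.51), Neo1, a netrin and RGM receptor, by 0.02 (-0.24 to 0.28), and Dcc, the attractive netrin receptor, by 0.15 (-0.12 to 0.41), with 3.10 on 5 arrays.

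Some members read alike on most arrays. Of the 60 members, 8 (13.3%) had 1 value to 2 decimals on at least 4 arrays, beside 14.1% of all tested genes: Sema4g and Plxna3 on 6 arrays, Sema4c and Unc5d on 5, and Sema6c, Ephb1, Unc5cl and Plxnb1 on 4. A small spread between labels in these genes rests on repeated values. Probe sets differ in brightness for reasons other than the amount of RNA, so signals were not read as an order of RNA levels. By brightness alone, the mean signal of 25 of the 60 members (41.7%) lay above the median of tested genes. Sema3f, Sema6a, Sema6d, Sema7a, Plxna1, Plxnd1, Slit2, Robo4, Efna1, Efnb1 and Epha2 were among the 25, a choice from the genes known from endothelium.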

How the data were processed

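Per the submitters' processing notes, the authors made the values with RMA in Affymetrix Expression Console 1.1; the deposited values were read as log2 signals from their range. The genome build behind the annotation is not given in the sources used here. Of 41345 probe sets, 23521 named 1 gene, 1814 several and 16010 none; symbols were updated through the RefSeq table of GRCm38.p6, which held 99.2% of the gene identifiers. Genes were represented by their brightest probe set, and the dimmest 25% (mean below 2.98) were left out, which left 16637 of 22180. No reads stand behind array values, so the number of arrays limits the precision.

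Labels were compared with limma 3.58.1 (lmFit, eBayes) in R 4.3.3 over all 16637 genes, two-sided, genotype as the only term; the code was tested on simulated data. Members named individually were, per family, the 4 of smallest unadjusted p, the 8 of largest SD within labels, and 27 known from endothelium. The members and lists were chosen with earlier results of these data known. Alternatives changed the filter on dim genes (none, 50%), normalization (quantile, median centring), moderation, array weights, probe sets (their mean), the replicate number as a block, and the arrays kept. The remaining marker lists, compared by their mean, differed by -0.04 (lymphatic), 0.22 (arterial), -0.05 (venous), 0.10 (aerocyte), -0.04 (mural), -0.15 (mesothelial), 0.06 (nerve and glia) and -0.34 (platelet and erythroid), with 0 genes called.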

Additional observations from a re-analysis of the deposited data

Results flagged for a closer look

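Among the 4 knockout-labelled arrays, 9 of the 45 guidance genes given with values had 1 array whose gap to the nearest other passed Dixon's 95% critical value for 4 samples (which chance passes in about 1 in 20 groups); genes whose other values are tied pass it easily. The share of all tested genes that would pass was not counted. Some of the 45 were named for a large SD within labels, so the 9 were not read as a trait of guidance genes. Knockout 2 stood apart for Efnb3 (4.36, others 4.22 to 4.23), Epha10 (4.13, others 4.64 to 4.71), Ephb1 (5.67, others 5.43 to 5.46), Ntn1 (4.81, others 5.16 to 5.19), Plxnb1 (5.36, others 5.04 to 5.07) and Unc5cl (3.60, others all 3.64). Knockout 3 stood apart for Plxna4 (7.26, others 6.18 to 6.34) and Robo3 (3.06, others all 3.09), and knockout 4 for Unc5d (3.71, others all 3.48).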

How the results depend on the processing

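In all 17 alternatives 0 genes, 0 guidance genes and 0 genes of the co-receptor list passed in limma. Counts at an unadjusted p under 0.05, main values 556 genes and 1 member, were 1310 and 5 with array weights, 225 and 0 with the replicate block, and 1779 and 9 without wild-type 3 and knockout 3, a fit chosen with the data known. With the block as a random effect 367 genes reached that level, and 2 members did with quantile normalization and 0 with median centring. Leaving out single arrays gave 295 (without wild-type 2) to 1314 genes (without wild-type 3) and 0 to 6 members. Same-numbered samples did not pair: their deviations from the label means correlated at -0.18, -0.20 and -0.55.

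Of 754 differences of named genes over the alternatives, 65 turned sign and 689 did not, of which Ntn4 without wild-type 3 and Plxna3 without wild-type 1 were at 0. The filters on dim genes and the moderation cannot change a difference. The mean of probe sets can change only those of Plxna1, Ephb1 and Plxnb1. Part of the 689 was thus fixed in advance, and the count is no measure of stability. With array weights Efna1 was -0.0077, Efna2 -0.0015, Robo2 -0.084, Robo3 -0.029, Sema3b 0.0048, Sema4d -0.051 and Slit3 -0.076. Median centring gave Efna5 0.048, Ntn1 0.028, Plxnd1 0.0033 and Unc5c 0.036; quantile normalization Efna5 0.031, Ntn1 0.018 and Unc5c 0.027; the mean of probe sets Plxnb1 -0.014. The replicate block gave Efna3 -0.017, Efna5 0.13, Sema3a -0.073, Sema4d -0.11, Slit3 -0.03 and Unc5d -0.013, and as a random effect Efna1 -0.0023 and Unc5c 0.014. Without wild-type 3 and knockout 3 Ntn4 was -0.035, Plxna4 -0.09, Plxnd1 0.18, Robo3 -0.095, Sema3e -0.1, Slit3 -0.027 and Unc5c 0.15. With single arrays left out the ranges of genes that turned were -0.033 to 0.07 (Efna1), -0.005 to 0.26 (Efna2), -0.027 to 0.17 (Efna3), -0.26 to 0.13 (Efna5), -0.015 to 0.53 (Epha7), -0.26 to 0.18 (Ntn1), -0.04 to 0.26 (Ntn4), -0.18 to 0.1 (Plxnd1), -0.11 to 0.23 (Robo2), -0.10 to 0.14 (Robo3), -0.073 to 0.29 (Sema3a), -0.29 to 0.023 (Sema3b), -0.37 to 0.14 (Sema3d), -0.005 to 0.35 (Sema3e), -0.11 to 0.27 (Sema4d), -0.083 to 0.13 (Slit3), -0.16 to 0.14 (Unc5c), -0.075 to 0.11 (Unc5cl) and -0.013 to 0.063 (Unc5d). The cause of these turns was not tested. Scaling moved the median of all genes from 0.02 to 0.07 at most.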
